A study of Rattus norvegicus with 8 samples.

Results

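The 10 genes described here make, fold and process collagen without coding for its chains, and they were followed in the rat carotid artery after intimal injury. They were taken from the count table by symbol, as 10 of its 37209 genes, and all 10 had enough reads for the test between injured and control arteries. By role they were P4ha1, P4ha2, P4ha3 and P4hb (prolyl 4-hydroxylase), Plod1, Plod2 and Plod3 (lysyl hydroxylases), Serpinh1 and Fkbp10 (collagen chaperones) and Pcolce (an enhancer of procollagen cleavage). The injured group held the left carotid arteries of 4 male Sprague-Dawley (SD) rats of 400 g average weight, damaged with an angioplasty balloon catheter and harvested after 2 weeks. The control group held 4 undamaged right carotid arteries, described as self-controls, so every control animal had also been anaesthetised with isoflurane and operated on the other side. The labels give no age, transgene or further drug for either group. The labels do not say which injured and control artery came from which rat and name no batch. Each p-value measures the spread between these 8 arteries.

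Collagen chains are modified in the endoplasmic reticulum (ER) before they leave the cell. Prolyl 4-hydroxylase, in which a catalytic alpha subunit (P4ha1, P4ha2 or P4ha3) pairs with the shared beta subunit P4hb, converts prolines to 4-hydroxyproline, which keeps the triple helix stable at body temperature. Lysyl hydroxylases prepare lysines for sugar attachment and cross-linking, Serpinh1 (Hsp47) and Fkbp10 (FKBP65) attend the folding chain, and outside the cell Pcolce speeds removal of the C-propeptide. Arterial smooth muscle cells and fibroblasts are the main users of this machinery in a vessel wall.

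The 250 bases before the transcription start of the 3 alpha subunit genes and of Plod2 are shown, because P4ha3 was the gene called after injury, with its paralogues beside it, and because Plod2 and P4ha2 share a motif. The sequences are those of RefSeq, build GRCr8, where 9 of the 10 genes matched. The windows lie at chr20:27844796-27845045 for P4ha1, chr10:38743644-38743893 for P4ha2, chr1:164040614-164040863 for P4ha3 and chr8:101964068-101964317 for Plod2, all on the plus strand. The P4ha1 window lies inside the longer span that the annotation gives this gene. Capitals mark a match, on either strand, to a hypoxia response element core, a CCAAT box, a TATA box, a GC box or a heat shock element core.
P4ha1: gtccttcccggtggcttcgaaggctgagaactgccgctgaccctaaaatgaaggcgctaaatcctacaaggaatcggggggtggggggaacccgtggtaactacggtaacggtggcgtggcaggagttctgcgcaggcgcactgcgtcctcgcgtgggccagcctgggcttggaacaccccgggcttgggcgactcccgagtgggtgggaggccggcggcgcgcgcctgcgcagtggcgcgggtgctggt
P4ha2: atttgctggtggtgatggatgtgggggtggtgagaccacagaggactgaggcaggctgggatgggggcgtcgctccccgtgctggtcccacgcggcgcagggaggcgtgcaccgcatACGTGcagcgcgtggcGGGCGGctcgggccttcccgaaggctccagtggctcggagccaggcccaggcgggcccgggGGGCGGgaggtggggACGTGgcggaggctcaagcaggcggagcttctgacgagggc
P4ha3: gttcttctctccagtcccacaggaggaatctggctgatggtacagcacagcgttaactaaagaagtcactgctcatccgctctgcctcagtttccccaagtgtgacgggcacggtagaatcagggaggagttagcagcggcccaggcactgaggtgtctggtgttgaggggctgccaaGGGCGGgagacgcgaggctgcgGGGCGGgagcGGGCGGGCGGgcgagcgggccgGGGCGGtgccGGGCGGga
Plod2: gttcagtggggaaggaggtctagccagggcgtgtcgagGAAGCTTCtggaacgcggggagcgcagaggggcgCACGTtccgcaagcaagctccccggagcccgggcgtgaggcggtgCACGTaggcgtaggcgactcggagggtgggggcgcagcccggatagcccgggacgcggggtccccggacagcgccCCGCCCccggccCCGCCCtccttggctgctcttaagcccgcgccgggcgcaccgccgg
P4ha1 held none of the motifs. The hypoxia response element core, ACGTG, was found in P4ha2 and Plod2 and in 16.6% of all 33469 windows of this length. The GC box, GGGCGG, stood in 8 of the 9 windows, all but P4ha1, against 30.5% of all windows. P4ha3 held 6 of them, of which one pair overlaps, with first bases at positions -72, -50, -40, -36, -18 and -8 from the start, and 0.825% of all windows held as many. The heat shock element core, GAANNTTC, was found in P4hb, Plod1, Plod2 and Serpinh1 and in 7.23% of all windows. CCAAT was found in P4hb alone and in 34.0% of all windows, and TATAAA in none of the 9 against 12.9%. No window of the 9 held the ER stress response element, in which CCAAT and CCACG lie 9 bases apart, and 0.0657% of all windows did. These matches describe letters only, and the windows are rich in G and C, from 56.0% to 74.8% against a median of 51.2% over all windows.

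The libraries held 13470754 to 15276952 counts in the control arteries and 11459632 to 16658089 in the injured arteries, which puts a level of 3 counts at 0.18 to 0.262 CPM (counts scaled to a common library size). Control artery 4 stood apart. Across genes, Pearson's r of log2 CPM was 0.830 to 0.852 between it and another control, against 0.976 to 0.978 among the other 3, and 8 sympathetic neuron markers summed to 10606 CPM in it, against 5.09 to 7.83 CPM in the other controls and up to 3064 CPM in the injured arteries (injured artery 3). It was below the other 3 controls in 9 of the 10 genes, all but P4ha1, whereas 39.9% of all tested genes showed that order. Over the 10 genes its level was 0.361 to 0.863 times the mean of the other controls (median 0.553), against a median of 0.983 over all tested genes. The part of these markers in the results was not tested, and values without control artery 4 are given for several results. The tissue label was checked against 7 smooth muscle markers, which summed to 17364 to 50365 CPM in the controls and 10516 to 16565 CPM after injury. Of 5 markers of cortical neurons and glia, only Gfap passed the count filter, although one protocol text of the libraries speaks of brain tissue.

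After injury, 1 of the 10 genes was differentially expressed, meaning a fold change above 2 together with a false discovery rate (FDR) under 0.05 in edgeR's quasi-likelihood test. P4ha3 rose 5.67-fold, and none of the others passed both criteria. Over all 14359 genes tested, 10.9% were called by these criteria, 8.31% upregulated and 2.57% downregulated, so the share among the 10 was close to that of all genes. At an unadjusted p under 0.05 there were 3 genes, P4ha3, Plod1 and P4ha2. The FDR criterion alone was passed by P4ha3 alone, against 17.2% of all genes tested. The log2 fold changes of the 10 ranged from -0.61 to 2.50 with a median of 0.31, against -0.06 over all genes tested. Of the 10, 8 were positive, against 6494 of all 14359 genes tested. Without control artery 4 the median of the 10 was 0.09, with 7 positive, against 7706 of 14758 genes tested. Scaling by library totals only raised the median of all genes by 0.17 on the log2 scale. It left 9 of the 10 positive, against 8579 of 14359 genes tested.

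**Figure D1:**
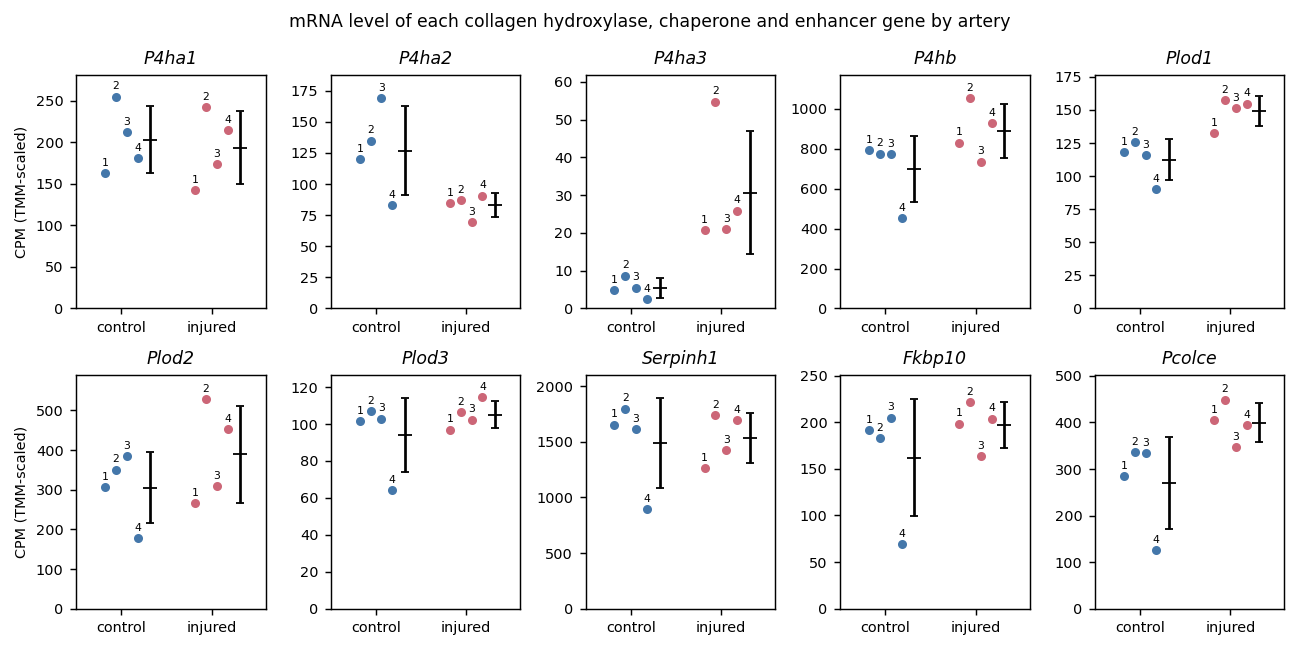
Level of each of the 10 genes in CPM (TMM-scaled, linear axis from 0) in the 4 control (blue) and 4 injured (red) arteries, numbered by replicate, with black bars for the mean and SD. The injured arteries lie above all controls for P4ha3 (20.8 to 54.8 against 2.57 to 8.69 CPM), Plod1 and Pcolce, and control artery 4 is the lowest control in 9 of the 10 panels.

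P4ha3, the third of the alpha subunits, was measured at 4.83, 8.69, 5.54 and 2.57 CPM in control arteries 1 to 4, from 67, 106, 80 and 37 reads. In injured arteries 1 to 4 it was 20.8, 54.8, 21.1 and 25.9 CPM, from 348, 755, 376 and 317 reads. The groups did not overlap, and the lowest injured artery was 2.39-fold above the highest control. Injured artery 2 had more than the other injured arteries, which lay close together. The log2 fold change was 2.50 (SE 0.46, 95% confidence interval 1.45 to 3.55, edgeR adjusted p = 0.00844). All 18 alternative fits called P4ha3, at log2 fold changes between 2.06 and 2.82, and tested against a fold change of 2 its edgeR adjusted p was 0.0462. Without control artery 4 it was 2.27 (edgeR adjusted p = 0.0054).

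Levels of genes listed as markers of other cell types moved beside P4ha3. The 6 cartilage markers summed to 13.0 to 21.6 CPM in the controls. In injured arteries 1 to 4 they summed to 121, 404, 129 and 333 CPM, and 4 of the 5 tested rose. Acan and Comp made up most of these sums, at 208 and 176 CPM in injured artery 2. Col2a1 was not called (edgeR adjusted p = 0.119). Of 6 macrophage markers, 5 also rose, from a sum of 123 to 193 CPM in the controls. In injured arteries 1 to 4 they summed to 1304, 2172, 1414 and 1771 CPM. Both sums ordered the injured arteries as P4ha3 did, and so did P4ha1, Plod2 and Serpinh1, which were not called. The sums of skeletal muscle and proliferation markers did not follow this order. A rise was also seen in 5 of 7 skeletal muscle markers (84.3 to 252 against 274 to 974 CPM). All 5 proliferation markers rose too (6.41 to 11.2 against 69.8 to 103 CPM), whereas 4 of the 7 smooth muscle markers fell. None of these markers was at 0 in all libraries, and their part in the result was not tested. In whole arteries, fewer cells of a type and less RNA per cell cannot be told apart.

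P4ha1, the alpha subunit of most tissues, was at 163, 255, 212 and 181 CPM in the controls and at 142, 242, 174 and 214 CPM after injury. The groups overlapped almost fully. Its log2 fold change was -0.07 (SE 0.21, 95% confidence interval -0.55 to 0.40, edgeR adjusted p = 0.846), and its sign changed with the scaling between libraries.

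P4ha2, an alpha subunit prominent in cartilage and bone, had 120, 135, 169 and 83.1 CPM in the controls and 84.4, 87.3, 69.2 and 90.8 CPM after injury. All injured arteries lay below control arteries 1 to 3, and control artery 4 lay among them. Its log2 fold change was -0.61 (SE 0.21, 95% confidence interval -1.10 to -0.13, edgeR adjusted p = 0.0852). Without control artery 4 it was -0.77 with an edgeR adjusted p of 0.00582, past the FDR criterion but short of a 2-fold change. That criterion alone was then passed by 3 of the 10 genes, against 29.9% of all genes tested without control artery 4, and both criteria by 1 of 10, against 16.2%.

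P4hb, the beta subunit and a protein disulfide isomerase in its own right, had 794, 776, 773 and 451 CPM in the controls and 832, 1055, 736 and 930 CPM after injury. Control arteries 1 to 3 were nearly equal, and injured artery 3 lay below them. In log2 units the change was 0.35 (SE 0.22, 95% confidence interval -0.15 to 0.84, edgeR adjusted p = 0.321).

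The 3 alpha subunits were then set against each other within each library, which removes the scaling between libraries. Reads were not divided by transcript length, so a share compares arteries and not genes. P4ha3 gave 1.68% of the alpha subunit reads in control artery 1, 2.18% in control artery 2, 1.43% in control artery 3 and 0.964% in control artery 4. In injured arteries 1 to 4 it gave 8.41%, 14.3%, 7.997% and 7.84%. The 95% Wilson intervals, which cover counting error only, reached at most 2.63% in a control and began at 7.05% or above in the injured arteries. The mean share was 1.56% ± 0.507 (SD, n = 4) in the controls and 9.63% ± 3.10 (SD, n = 4) after injury, with an exact permutation p of 0.0286, two-sided, and 0.0857 adjusted over the 3 subunits. With 4 arteries in each group no two-sided p below 0.0286 can be reached. The share of P4ha2 was 37.6% ± 6.05 (SD, n = 4) in the controls and 27.6% ± 4.75 (SD, n = 4) after injury, with overlapping groups (exact permutation p = 0.0857, adjusted 0.129). The share of P4ha1 was 60.8% ± 6.14 (SD, n = 4) and 62.8% ± 3.68 (SD, n = 4) (exact permutation p = 0.686).

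**Figure D2:**
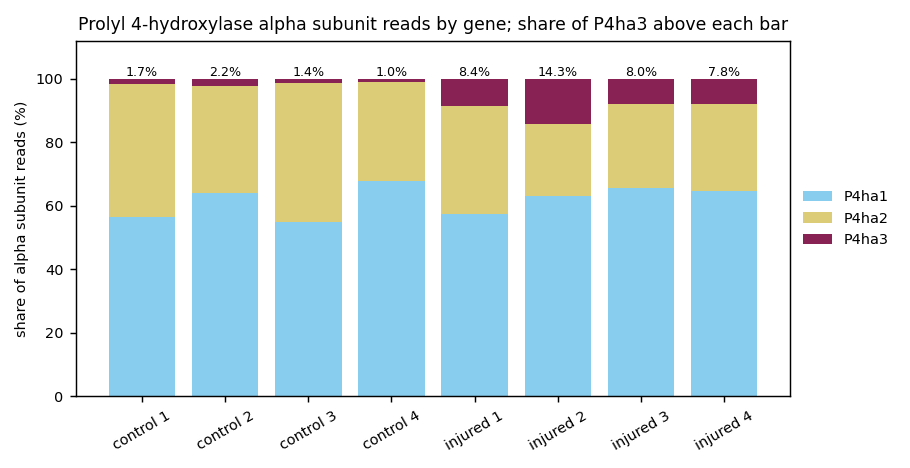
Share of the alpha subunit reads of each artery that fell on P4ha1, P4ha2 and P4ha3, in percent of their sum, with the P4ha3 share printed above each bar. P4ha3 takes 0.964% to 2.18% in the 4 control arteries and 7.84% to 14.3% in the 4 injured arteries.

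The ratio of P4ha3 to P4ha1 reads was 29.6, 34.1, 26.1 and 14.2 per 1000 in the controls and 146, 226, 122 and 121 per 1000 after injury. These groups did not overlap, and the mean log2 ratio was higher by 2.58, or 5.96-fold, after injury (exact permutation p = 0.0286 and 0.171 after adjustment over the 6 ratios computed, a number at which a single ratio at the smallest possible p cannot pass). The ratio of all alpha subunit reads to P4hb reads was 362, 513, 500 and 591 per 1000 in the controls and 298, 364, 359 and 356 per 1000 after injury. Only control artery 1 lay within the injured range, and the mean log2 ratio fell by 0.50 (exact permutation p = 0.0571, adjusted 0.171), which did not pass.

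Of the lysyl hydroxylases, Plod1, which acts on the helical part of the chain, had 118, 126, 116 and 90.2 CPM in the controls and 132, 157, 151 and 155 CPM after injury. Every injured artery lay above every control. Such an order, upward, was seen in 3 of the 10 genes (P4ha3, Plod1 and Pcolce) and in 14.2% of all genes tested, and the downward order in none of the 10 and in 9.51% of all. The change in Plod1 was small, with a log2 fold change of 0.41 (SE 0.13, 95% confidence interval 0.11 to 0.70, edgeR adjusted p = 0.0685). It passed the FDR criterion without control artery 4 (0.31, edgeR adjusted p = 0.0402), with DESeq2 (adjusted p = 0.0491) and with library totals only (0.59, edgeR adjusted p = 0.00835), in each case short of a 2-fold change.

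Plod2, the lysyl hydroxylase of the telopeptides and of the cross-links found in fibrosis, had 306, 351, 385 and 179 CPM in the controls and 266, 528, 309 and 453 CPM after injury. Injured arteries 2 and 4 were above all controls, and injured arteries 1 and 3 lay among or below control arteries 1 to 3. The log2 fold change was 0.35 (SE 0.30, 95% confidence interval -0.33 to 1.03, edgeR adjusted p = 0.466). Plod2 reads per 1000 Plod1 reads were 2595, 2786, 3330 and 1984 in the controls and 2010, 3361, 2046 and 2929 after injury, a log2 difference of -0.06 (exact permutation p = 0.914).

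Plod3, which also transfers sugars to hydroxylysine, had 102, 107, 103 and 64.3 CPM in the controls and 97.0, 106, 102 and 115 CPM after injury. Apart from control artery 4 the arteries of both groups lay within a narrow range. Its log2 fold change was 0.16 (SE 0.17, 95% confidence interval -0.23 to 0.55, edgeR adjusted p = 0.558). The gene overlaps Znhit1 in the annotation, and whether the counting used strand is not given, so some reads may be shared.

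Serpinh1, the chaperone specific to collagen, had 1655, 1799, 1616 and 894 CPM in the controls and 1266, 1739, 1427 and 1698 CPM after injury. No injured artery exceeded the highest control. Its log2 fold change was 0.04 (SE 0.24, 95% confidence interval -0.51 to 0.59, edgeR adjusted p = 0.929), and -0.15 without control artery 4 (95% confidence interval -0.46 to 0.17). Both intervals lie inside a 2-fold change.

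Fkbp10, a peptidyl-prolyl isomerase needed for telopeptide hydroxylation, had 191, 183, 205 and 69.7 CPM in the controls and 199, 222, 164 and 204 CPM after injury. Control arteries 1 to 3 lay within the injured range, and control artery 4 far below it. The log2 fold change was 0.28 (SE 0.31, 95% confidence interval -0.43 to 0.99, edgeR adjusted p = 0.582), and 0.03 without that artery.

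Pcolce had 285, 336, 334 and 126 CPM in the controls and 405, 449, 347 and 395 CPM after injury. All injured arteries were above all controls, although injured artery 3 was close to control arteries 2 and 3. Over all 8 arteries the log2 fold change was 0.56 (SE 0.29, 95% confidence interval -0.11 to 1.23, edgeR adjusted p = 0.233). Without control artery 4 it was 0.32 (edgeR adjusted p = 0.0731). Without both control artery 4 and injured artery 3 it was 0.39 (edgeR adjusted p = 0.0266), short of a 2-fold change. This last omission was chosen after seeing the data.

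**Figure D3:**
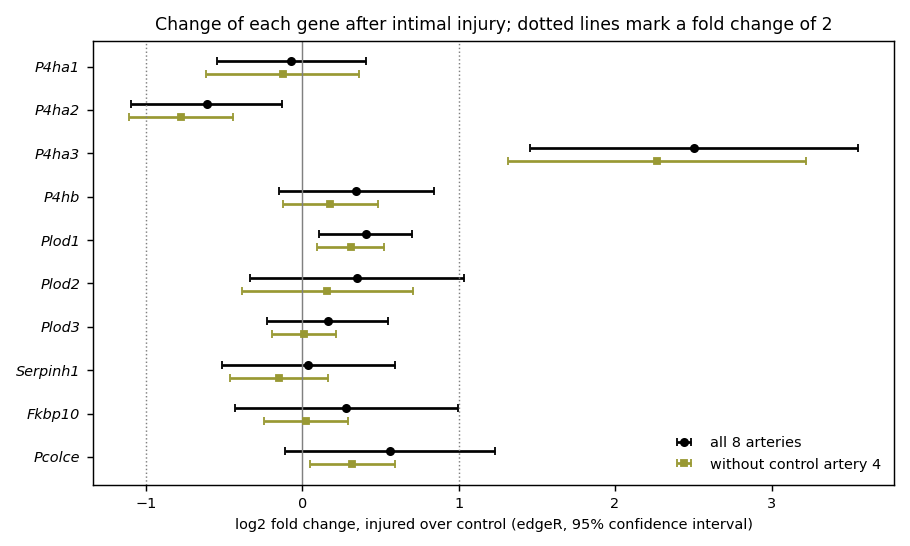
Log2 fold change of each of the 10 genes, injured over control, with its 95% confidence interval from edgeR, for all 8 arteries (black circles) and without control artery 4 (olive squares). Dotted lines mark a fold change of 2 in either direction, and only the P4ha3 interval, 1.45 to 3.55, lies wholly outside them.

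For 6 of the 10 genes (P4ha1, P4hb, Plod1, Plod3, Serpinh1 and Fkbp10) the 95% confidence interval lay within a 2-fold change in either direction. Without control artery 4 this held for 8 genes. The intervals of Plod2 and Pcolce, on all 8 arteries, reached past a 2-fold rise, and that of P4ha2 reached past a 2-fold fall.

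Of the substrates of these enzymes, only 5 fibrillar collagen chains were listed and read beside them. For chains outside this list, the study reported higher Col8a1, Col8a2, Col12a1 and Col6a3 mRNA after this injury, by real-time RT-PCR. Of the 5 fibrillar chains none was called, 2 had a positive log2 fold change and the median was -0.16. One of them, Col5a2, had an unadjusted edgeR p under 0.05, and DESeq2 called none. Col1a1 had 23918, 25847, 26993 and 8466 CPM in the controls and 19637, 22547, 13634 and 17566 CPM after injury. Col3a1, the chain of type III collagen, had 26482, 27234, 29012 and 9569 CPM in the controls and 24040, 22492, 15555 and 20292 CPM after injury. Control artery 4 was the lowest artery for both, and all injured arteries lay between it and the other controls. The log2 fold changes were -0.22 (95% confidence interval -1.12 to 0.69) for Col1a1, -0.64 (-1.54 to 0.27) for Col1a2, -0.16 (-1.05 to 0.72) for Col3a1, 0.46 (-0.28 to 1.21) for Col5a1 and 0.94 (0.20 to 1.68) for Col5a2. The edgeR adjusted p of Col5a2 was 0.0857. With library totals only its log2 fold change was 1.12 and it was called (edgeR adjusted p = 0.0352). Without control artery 4 the median of the 5 chains was -0.43, 2 were positive and none was called. Col1a2 (-0.92, edgeR adjusted p = 0.0144) and Col5a2 (0.70, edgeR adjusted p = 0.0265) then passed the FDR criterion alone, against 29.9% of all genes tested. Col1a1 (95% confidence interval -0.91 to -0.06) and Col3a1 (-0.82 to -0.03) did not pass it (edgeR adjusted p = 0.0802 and 0.0965).

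Reads of the enzymes per 1000 reads of Col1a1, Col1a2 and Col3a1 together were compared within each library. Col1a1 and Col3a1 made up most of this sum. Col1a2 had only 243 to 1006 CPM in the controls and 303 to 525 CPM after injury. The alpha subunits gave 5.63, 7.40, 6.78 and 14.6 per 1000 in the controls and 5.61, 8.43, 8.95 and 8.65 per 1000 after injury (log2 difference -0.04, exact permutation p = 0.886). The lysyl hydroxylases gave 10.3, 10.8, 10.6 and 18.2 per 1000 in the controls and 11.2, 17.4, 19.1 and 18.9 per 1000 after injury (log2 difference 0.43, exact permutation p = 0.114). Serpinh1 gave 32.4, 33.4, 28.3 and 48.9 per 1000 in the controls and 28.7, 38.2, 48.4 and 44.4 per 1000 after injury (log2 difference 0.16, exact permutation p = 0.486). In all 3 ratios control artery 4 was the highest control and injured artery 1 the lowest injured artery. Without control artery 4 the log2 differences were 0.24, 0.62 and 0.32. Of the 6 ratios, none passed the test after adjustment and 1, that of P4ha3 to P4ha1, had an unadjusted p under 0.05 in the exact permutation test.

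**Figure D4:**
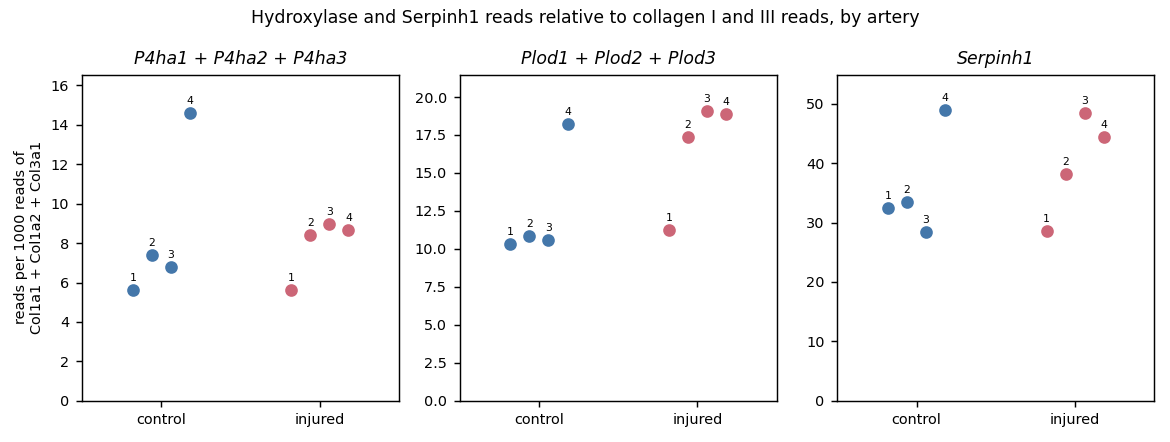
Reads of the alpha subunits, the lysyl hydroxylases and Serpinh1 per 1000 reads of Col1a1, Col1a2 and Col3a1, by artery (linear axes from 0, numbers are replicates). Control artery 4 lies with or above the injured arteries in each panel, at 14.6, 18.2 and 48.9 per 1000, and injured artery 1 lies close to control arteries 1 to 3.

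Other genes of the pathway moved in both directions. Of 13 tested genes for other steps of collagen modification, folding and export, 6 were positive and 7 negative (median -0.16). One was called. P3h2, a prolyl 3-hydroxylase, fell from 50.1, 59.2, 44.0 and 23.5 CPM to 19.7, 13.3, 15.1 and 19.8 CPM, with no overlap (log2 fold change -1.38, SE 0.28, edgeR adjusted p = 0.0138). It was not called with injured artery 2 left out (-1.28, edgeR adjusted p = 0.0506). Crtap, a partner of prolyl 3-hydroxylase singled out after its values were seen, was below 1 CPM in every artery and was not tested.

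Among the proteases that remove the propeptides, together with Pcolce2, 3 of 6 tested genes were called. Tll1, a C-proteinase of the Bmp1 family, had 4.11, 5.25, 5.96 and 3.89 CPM in the controls and 18.8, 19.3, 14.6 and 23.6 CPM after injury (log2 fold change 1.99, SE 0.22, edgeR adjusted p = 0.000965). Adamts14, an N-proteinase, had 4.32, 5.74, 6.10 and 4.66 CPM in the controls and 18.6, 32.3, 19.1 and 32.2 CPM after injury (log2 fold change 2.29, SE 0.25, edgeR adjusted p = 0.00101). Neither gene differed much among the 4 controls, control artery 4 included. Pcolce2, the paralogue of Pcolce, fell from 218, 236, 224 and 114 CPM to 61.3, 43.6, 36.0 and 46.1 CPM (log2 fold change -2.08, SE 0.27, edgeR adjusted p = 0.00176). These 3 genes were called in all 18 alternative fits. Pcolce and Pcolce2 thus had log2 fold changes of 0.56 and -2.08, and the difference between them was not tested.

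Of 16 genes for general ER folding and stress, 1 was called and the median was -0.08. Sdf2l1, an ER stress gene, had 4.54, 4.67, 6.03 and 13.4 CPM in the controls and 13.6, 26.8, 22.5 and 26.4 CPM after injury (log2 fold change 1.64, SE 0.40, edgeR adjusted p = 0.0273). Leaving out any 1 of control arteries 1, 2 and 3 or injured arteries 2, 3 and 4 ended its call, with log2 fold changes from 1.47 to 1.63. It stayed called without control artery 4 (2.13, edgeR adjusted p = 0.00119) and without injured artery 1 (1.81, edgeR adjusted p = 0.0311). Of 13 tested genes of the hypoxia response other than P4ha1, P4ha2 and Plod2, which respond to low oxygen in many cells, 1 was called. The median was -0.23, with 5 positive and 8 negative. An unadjusted edgeR p under 0.05 was seen in 5, and DESeq2 called 2, 1 upregulated and 1 downregulated. Car9, a carbonic anhydrase, had 0.792, 0.164, 0.277 and 0.0695 CPM in the controls and 1.67, 1.16, 3.26 and 1.64 CPM after injury (log2 fold change 2.54, SE 0.65, edgeR adjusted p = 0.0326). The control values came from 11, 2, 4 and 1 reads. Leaving out control artery 2 or 3 or any 1 of the 4 injured arteries ended its call, with log2 fold changes from 2.16 to 2.72.

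**Figure D5:**
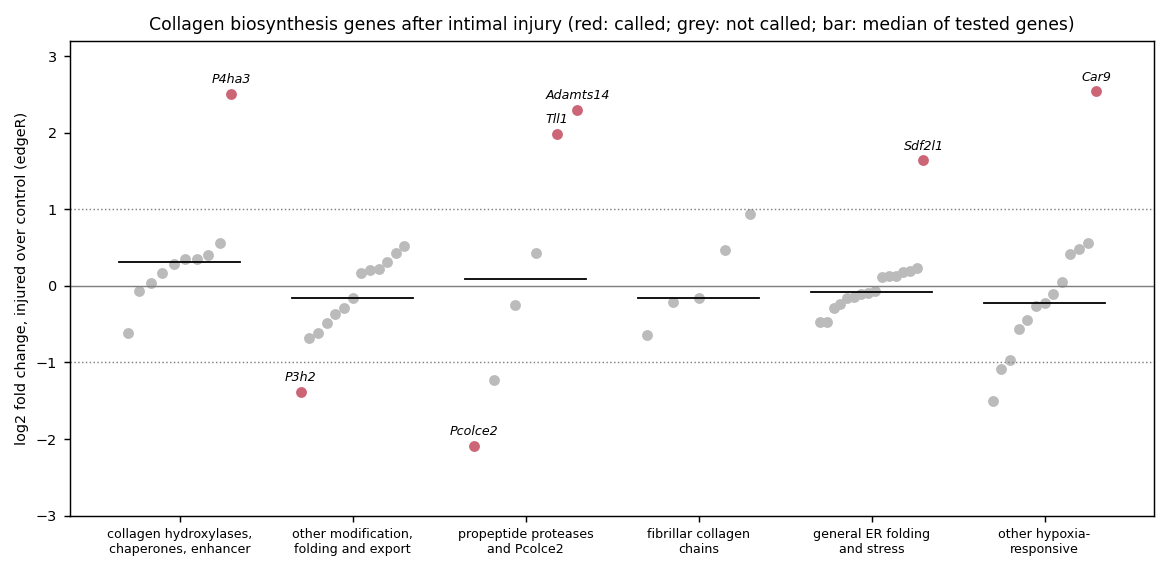
Log2 fold change, injured over control, of each tested gene of the collagen hydroxylases, chaperones and enhancer and of 5 lists of related genes, with a bar at the median of each list. Red points are called (FDR under 0.05 and fold change above 2) and named, and the list medians lie between -0.23 and 0.31.

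The 10 genes did not vary together to the same degree. The mean of their standardised log2 CPM was lowest in control artery 4, at -1.76, and highest in injured artery 2, at 0.85. Over the 8 arteries, which share the low value of control artery 4, Pearson's r with this mean was 0.93 to 0.96 for P4hb, Plod2, Plod3, Serpinh1, Fkbp10 and Pcolce, which are part of it. It was 0.83 for Plod1, 0.72 for P4ha3, 0.50 for P4ha1 and 0.26 for P4ha2. Among tested genes outside all lists, the most alike in pattern over the 8 arteries were Elavl1 (r = 0.991), Dnmt3b (0.986), Fmod (0.981), Ext1 (0.977) and Ubn2 (0.976).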

How the data were processed

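The authors deposited raw counts of reads per gene, listed by symbol, for 4 injured and 4 control arteries. The submitters' processing notes name HISAT2 2.0.4. The counting tool, the genome build and the use of strand are not given in the sources used here. The counts were analysed in edgeR 4.0.16 (R 4.3.3) with TMM factors, filterByExpr and the quasi-likelihood test over 14359 genes, with Benjamini-Hochberg adjustment. A gene was called at an FDR under 0.05 with a fold change above 2, the study's criteria. DESeq2 1.42.0, other scalings and filters, a replicate block and the omission of each artery were alternatives. Levels are TMM-scaled CPM. Shares and ratios within a library, with 0.5 added to the counts of ratios, were compared by exact permutation over all 70 relabellings (scipy 1.17.1). Intervals of shares are 95% Wilson intervals. Reads carry no molecular identifiers, so intervals and the 3-count floor cover counting error only. On counts simulated for this comparison, edgeR called 128 of 200 genes changed 4-fold and 13 unchanged genes, of 14128 tested. DESeq2 called 171 of the same 200 and 58 unchanged genes, of 14359 tested.

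The genes named are the 10 members, the 5 fibrillar collagen chains, the called genes of each other list (at most the 4 with the largest change) and the 5 genes most alike in pattern. The members and all lists were chosen with earlier results of these data known. Mia2, of the modification and export list, was not matched to a symbol, and P3h1 to P3h4 were matched by synonyms.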

Additional observations from a re-analysis of the deposited data

Results flagged for a closer look

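Of 42 groups of 4 arteries checked for a single distant artery with Dixon's ratio (the gap to the nearest artery over the whole range), 9 passed its 95% critical value, where chance gives about 2.1. Among the injured arteries, injured artery 2 stood apart for P4ha3, at 54.8 CPM against 25.9 CPM in the nearest (ratio 0.849). Control artery 4 was the distant one in 6 of the 9. It was below the nearest control for P4hb at 451 against 773 CPM (0.940), for Plod3 at 64.3 against 102 CPM (0.870), for Fkbp10 at 69.7 against 183 CPM (0.835), for Col1a1 at 8466 against 23918 CPM (0.834) and for Col3a1 at 9569 against 26482 CPM (0.870). It was above the nearest control in the log2 ratio of lysyl hydroxylase to collagen I and III reads, at -5.78 against -6.53 (0.910). Injured artery 1 was the lowest in the log2 ratio of alpha subunit reads to P4hb reads, at -1.75 against -1.49 (0.888), and to collagen I and III reads, at -7.48 against -6.89 (0.871).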

How the results depend on the processing

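P4ha3 was the only one of the 10 genes called under all 19 alternatives run, and no gene of the 10 was called downregulated in any of them by edgeR or DESeq2, although P4ha2 had an unadjusted edgeR p of 0.0192. The log2 fold change of P4ha1 turned to 0.00397 with upper-quartile factors and 0.10 with library totals only, and lay between -0.20 and 0.052 with each artery left out. That of Serpinh1 was -0.11 without control artery 4 and injured artery 3, an alternative chosen after seeing the data, and -0.15 to 0.14 with each artery left out. With each artery left out, the log2 ratio difference of Plod2 to Plod1 lay between -0.20 and 0.054, and that of the alpha subunits to collagen I and III between -0.21 and 0.24. The 6 calls in the related lists became 3 in the test against a fold change of 2 and 3 to 6 with each artery left out, 3 without injured artery 2. The cause was not tested. None of the 6 ratios passed in the 3 alternatives to their denominator and added count. These alternatives are a weak check, since a single ratio at the smallest possible exact permutation p cannot pass after adjustment over 6. With the replicate block, the log2 fold change of P4ha3 was 2.50 (edgeR adjusted p = 0.0122), while P3h2 (-1.33, edgeR adjusted p = 0.069) and Car9 (2.72, edgeR adjusted p = 0.0613) were not called. The numbers could not be shown to pair the arteries, since the deviations of same-numbered arteries correlated at 0.301, 0.450, -0.520 and -0.416 and 1 of 4 controls correlated best with its own number.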

Other observations

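Marker lists not mentioned above were also summed per artery. Of 5 endothelial markers, 2 rose and 1 fell (sum 730 to 2023 CPM in the controls and 570 to 835 CPM after injury). Of 5 fibroblast markers, 1 rose and 2 fell (1802 to 3550 and 1832 to 3122 CPM). All 5 T cell markers had a positive log2 fold change (19.5 to 39.7 and 126 to 160 CPM). Of them edgeR called 1, Cd4, and DESeq2 called Lck as well. Cd4 made up most of these sums, at 18.0 to 31.4 CPM in the controls and 117 to 145 CPM after injury. None of 4 tested Schwann cell markers was called by edgeR or DESeq2, and 0 had an unadjusted edgeR p under 0.05 (31.3 to 655 and 272 to 1107 CPM). None of 4 adipocyte markers was called by edgeR, while Cidec had an unadjusted p under 0.05 and was the 1 called by DESeq2 (27.0 to 311 and 10.01 to 124 CPM). The sums of smooth muscle, endothelial, fibroblast, T cell and skeletal muscle markers were each lowest in control artery 4 and in injured artery 3 within their groups. These arteries had the highest sums of sympathetic neuron markers in their groups.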
